A study of Homo sapiens with 34 samples.

Results

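FOXA2, FOXA1, FOXA3, SOX17, HHEX and HNF4A are transcription factors by which definitive endoderm (DE) is commonly recognised. They were found by symbol in both tables of estimated counts, each under 1 gene ID, so they are 6 of the 37951 genes listed, and all 6 had enough counts to be tested. They are described here across 17 conditions of ESI017, an established line of human pluripotent stem cells, with 2 libraries per condition (34 in all), labelled as replicates 1 and 2. The control cells stayed in the stem cell medium mTeSR Plus and are labelled 48 h. Cells at 24 h therefore differ from them in time as well as in treatment. The other cells were taken through 1 of 4 first-day treatments that induce primitive streak (PS), the embryonic region from which mesoderm and endoderm arise. For DE(a) this was activin at 100 ng/ml with the Wnt activator CHIR at 2 µM. For anterior streak (APS) activin was lowered to 30 ng/ml, CHIR raised to 4 µM and bFGF added at 20 ng/ml. For mid streak (MPS) CHIR was raised further to 6 µM and 40 ng/ml of BMP4 was added to the activin and bFGF of APS, and posterior streak (PPS) differed from it only in lacking activin. Cells were collected at 24 h, or at 48 h after a further day in 1 of 3 media. The endoderm medium DE(b) combined activin at 100 ng/ml with LDN, a BMP receptor inhibitor, at 250 nM. The paraxial mesoderm (PM) medium combined A-8301, an activin receptor inhibitor, at 1 µM with LDN at 250 nM and bFGF at 20 ng/ml. The paper also describes Wnt activation in its PM protocol, which the labels do not list. The lateral mesoderm (LM) medium combined A-8301 at 1 µM with BMP4 at 30 ng/ml and the Wnt inhibitor IWP2 at 4 µM. A name such as APS-LM gives the first and then the second treatment. All conditions therefore share the cell line, and the PM and LM media share the block of activin receptors that DE(b) medium lacks.

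The libraries held 15522780 to 23439799 estimated counts each. Levels are given as CPM, counts per 1000000 of the library total, and 3 counts, the least taken as a signal, are 0.128 to 0.193 CPM in these libraries. A condition whose 2 libraries both held 3 counts or fewer is called at the floor. Differences were tested in edgeR by quasi-likelihood, in 1 model over all 34 libraries, and a gene was called at a Benjamini-Hochberg adjusted p under 0.05 over 17895 genes. Calls are those of this model unless another is named. Values after ± are the SD of the 2 replicates for CPM and the standard error (SE) for log2 fold changes. In these bulk libraries, fewer cells expressing a gene and less of its RNA per cell cannot be told apart.

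The FOXA proteins are forkhead factors that bind closed chromatin and open it for other factors, and FOXA2 and FOXA1 act early in endoderm while FOXA3 is best known from gut and liver. SOX17 is an HMG box factor needed for DE in vertebrates, and it is also used by human germ cells and some endothelium. HHEX is a homeobox factor of anterior DE, from which liver and thyroid form, and HNF4A is a nuclear receptor known from liver, gut epithelium and visceral endoderm. High activin or Nodal signaling in the PS favours DE, and BMP signaling favours mesoderm.

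HNF4A and HHEX, which rose together in DE(b) medium, and FOXA3, which was present in every condition, are shown by the 250 bases before their annotated starts (RefSeq, GRCh38.p14). HNF4A has 2 starts in this table, and the gene counts do not tell which was used. Capitals mark matches on either strand to a GATA motif (AGATAA) or a T-box motif (AGGTGT), and a forkhead motif (TGTTTAC) was searched too. So was a SOX motif, whose letters are ACAAAG.
HNF4A, first start, chr20:44355449-44355698, plus strand: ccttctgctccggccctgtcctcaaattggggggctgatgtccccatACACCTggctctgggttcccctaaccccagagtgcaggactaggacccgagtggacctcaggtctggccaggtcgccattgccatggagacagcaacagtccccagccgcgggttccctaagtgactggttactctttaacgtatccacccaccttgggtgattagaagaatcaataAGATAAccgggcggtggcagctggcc
HNF4A, second start, chr20:44400989-44401238, plus strand: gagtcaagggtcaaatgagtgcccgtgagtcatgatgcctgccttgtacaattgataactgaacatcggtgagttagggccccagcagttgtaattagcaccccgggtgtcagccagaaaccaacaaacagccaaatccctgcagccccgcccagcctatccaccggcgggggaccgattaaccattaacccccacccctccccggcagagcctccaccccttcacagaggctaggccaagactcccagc
HHEX, chr10:92689705-92689954, plus strand: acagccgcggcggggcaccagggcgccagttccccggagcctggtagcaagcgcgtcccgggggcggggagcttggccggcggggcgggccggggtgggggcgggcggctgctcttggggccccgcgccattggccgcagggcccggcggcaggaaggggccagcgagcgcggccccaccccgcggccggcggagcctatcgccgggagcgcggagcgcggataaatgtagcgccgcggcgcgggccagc
FOXA3, chr19:45864076-45864325, plus strand: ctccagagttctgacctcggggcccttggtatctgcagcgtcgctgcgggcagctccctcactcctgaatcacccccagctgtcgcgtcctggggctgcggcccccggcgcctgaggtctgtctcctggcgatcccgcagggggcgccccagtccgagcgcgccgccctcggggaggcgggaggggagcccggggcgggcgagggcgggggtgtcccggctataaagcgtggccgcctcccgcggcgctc
The first start of HNF4A held 1 GATA match, which ended 20 bases before the start, and 1 T-box match, while the other windows printed here held no match. The window of FOXA1 held 3 SOX matches and is not printed. Of 35116 windows of this length, 9.17% held the GATA letters, 9.57% the T-box letters, 2.98% the forkhead letters and 13.7% the SOX letters, and a match says nothing of binding. FOXA2 and SOX17 were matched to no entry.

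FOXA2 (ENSG00000125798, chr20:22580998-22585455, minus strand), SOX17 (ENSG00000164736, chr8:54457935-54460892), HHEX (ENSG00000152804, chr10:92689955-92695647) and FOXA3 (ENSG00000170608, chr19:45863989-45873797) overlap no other gene in the GENCODE annotation of GRCh38. FOXA1 (ENSG00000129514, chr14:37589552-37596059, minus strand) overlaps TTC6 on the opposite strand. HNF4A (ENSG00000101076, chr20:44355699-44432845) overlaps HNF4A-AS1 and ENSG00000233376 on the opposite strand and MIR3646 on its own. The labels name a directional library kit, and whether strand was used in quantification is not given in the sources used here. FOXA1 and FOXA2 share 64 stretches of 31 bases in their transcripts, 1.44% and 2.38% of each. FOXA3 and HHEX share none with another gene, SOX17 shares 0.302% and HNF4A 4.06%.

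**Figure D1:**
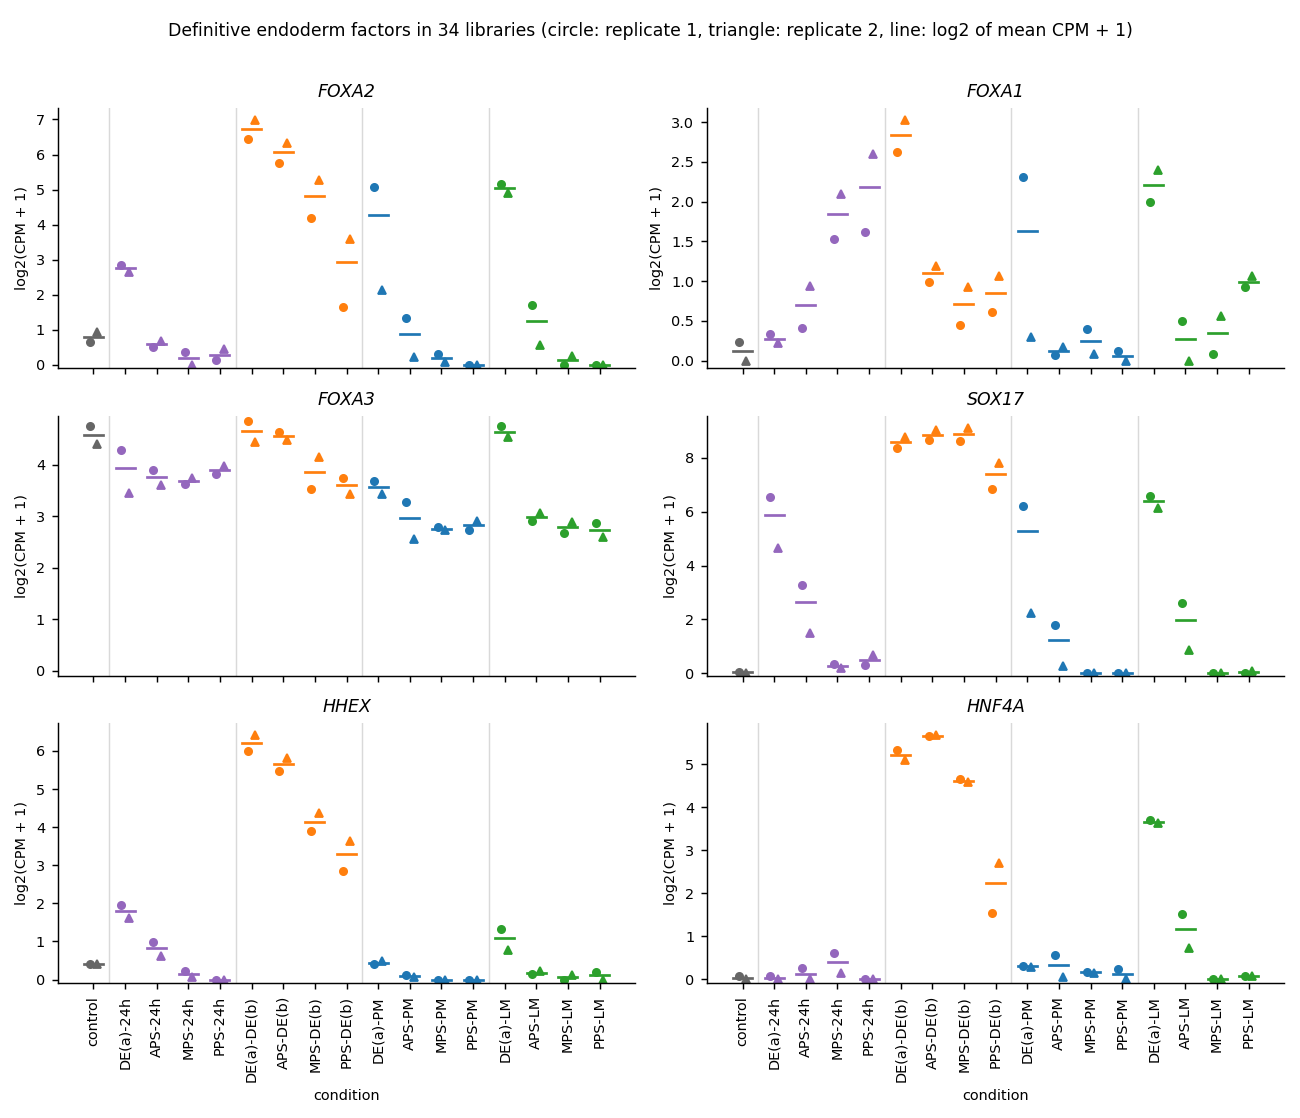
Levels of the 6 factors in all 34 libraries, as log2(CPM + 1) against the 17 conditions, with a circle for replicate 1, a triangle for replicate 2 and a line at log2 of the mean CPM + 1. Each gene has its own vertical scale. FOXA2, SOX17, HHEX and HNF4A peaked in DE(b) medium, FOXA3 was above 4 CPM in every library, and DE(a)-PM replicates lay far apart for FOXA2, SOX17 and FOXA1.

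Per kilobase of exon, SOX17 was the most abundant of the 6 in DE(a)-DE(b), the standard endoderm protocol, at 164 ± 32.9 CPM per kb (SD, n = 2). FOXA2 followed at 38.8 ± 10.1 CPM per kb, HHEX at 29.1 ± 6.06, FOXA3 at 11.4 ± 2.30, HNF4A at 3.56 ± 0.443 and FOXA1 at 1.40 ± 0.316. The length of HNF4A is the union of its exons (10167 bases) and exceeds any single transcript, so its level per kb is understated. In order of mean CPM, SOX17 libraries from MPS, APS and DE(a) cells overlapped in DE(b) medium, and those of DE(a)-DE(b), DE(a)-LM, control and APS-DE(b) overlapped for FOXA3. For HHEX, DE(a)-, APS-, MPS- and PPS-DE(b) and then DE(a)-24h followed each other with no overlap between neighbours. Across the 17 condition means of log2(CPM + 1), which share libraries between genes, Pearson's r was 0.94 for FOXA2 with SOX17 and 0.90 for HHEX with HNF4A. FOXA1 followed the others least, with r from 0.37 with HHEX to 0.56 with FOXA3.

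The first question was which factors were on after day 1. SOX17 and, to a lesser degree, FOXA2 and HHEX were raised in DE(a) cells at 24 h, and HNF4A was not detectable. Of the other forkhead genes, FOXA1 was higher with other treatments, and FOXA3 lay below the control with every treatment. SOX17 was at 91.7 and 24.3 CPM in the replicates of DE(a)-24h, and the control held 1 count in both libraries together. FOXA2 was at 6.24 and 5.32 CPM against 0.587 and 0.904 CPM in the control, and HHEX was at 2.90 and 2.05 CPM against 0.316 and 0.319 CPM. No library of DE(a)-24h overlapped the control for these 3 genes. The call of SOX17 had an adjusted p of 0.000261, HHEX rose by 3.03 ± 0.55 log2 units (adjusted p = 0.000514) and FOXA2 by 3.05 ± 1.02 (adjusted p = 0.042). Thus 3 of 6 factors were called in DE(a)-24h, all higher, where 19% of all genes tested were called and 10.3% were higher. The median log2 fold change of the 6 was 2.11, beside 0.03 over all genes. HNF4A held 1 count in the DE(a)-24h libraries, and it was at 0.521 CPM or lower in every library at 24 h. The call of FOXA2 was lost when any 1 of 6 libraries was left out, with adjusted p from 0.0506 to 0.225, and with DESeq2.

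In APS-24h, SOX17 was the only factor called higher than in the control, at 8.62 and 1.79 CPM (adjusted p = 0.0184), among 24.5% of all genes. This call was lost without APS-24h replicate 1 (adjusted p = 0.162) and without either control library (0.114 and 0.111). In MPS-24h and PPS-24h, SOX17 did not exceed 0.602 CPM and FOXA2 did not exceed 0.361 CPM. HHEX had 0 counts in both PPS-24h libraries, at least 15.1-fold lower than in DE(a)-24h if 3 counts are allowed in each library. Directly compared, PPS-24h was below DE(a)-24h in SOX17 (log2 fold change -7.19 ± 1.36, adjusted p = 0.000794), FOXA2 (-4.75 ± 1.24, adjusted p = 0.00938) and HHEX (adjusted p = 9.36e-06), so that 3 of 6 were lower where 10.2% of all genes were (20.9% in either direction). The call of FOXA2 was lost without PPS-24h replicate 1 (adjusted p = 0.08). HHEX was lower in MPS-24h than in APS-24h (-2.67 ± 0.70, adjusted p = 0.0446, where 2.93% of all genes were called), a call lost when any 1 of 20 libraries was left out and with only the 4 libraries compared (0.248), and DESeq2 called SOX17 lower there too (0.0142). None was called by edgeR between PPS-24h and MPS-24h, where 6.14% of all genes were, although HHEX and HNF4A had an unadjusted p under 0.05 and DESeq2 called HNF4A (0.0245). Between APS-24h and DE(a)-24h none of the 6 was called by edgeR over all 34 libraries, where 0.732% of all genes were, although FOXA2 (-3.50 ± 1.07, adjusted p = 0.226), SOX17 (-3.50 ± 1.00, adjusted p = 0.178) and HHEX (-1.69 ± 0.49, adjusted p = 0.198) were all lower in both APS replicates. At an unadjusted p under 0.05 these 3 were counted, and DESeq2 called HHEX with an adjusted p of 0.0384. With only the 4 libraries compared, edgeR called FOXA2 (0.0132).

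FOXA1 went the other way at 24 h. It was at 0.181 and 0 CPM in the control, 0.259 and 0.161 CPM in DE(a)-24h and 0.331 and 0.915 CPM in APS-24h. It was higher, though still low, at 1.89 and 3.29 CPM in MPS-24h and 2.07 and 5.06 CPM in PPS-24h. These treatments have BMP4 and also the most CHIR (6 µM), so BMP4 and CHIR cannot be told apart here. MPS-24h and PPS-24h were both called against the control (adjusted p = 0.00768 and 0.00485), in comparisons that called 30% and 29.8% of all genes. Both calls rested on the control library without a count, and were lost when control replicate 2 was left out (adjusted p = 0.0854 and 0.0643). PPS-24h exceeded DE(a)-24h by 3.96 ± 1.22 log2 units (adjusted p = 0.0232), a call lost without either DE(a)-24h library or PPS-24h replicate 2 (0.114 to 0.132). FOXA3 was at 25.9 and 20.2 CPM in the control, a level no other factor had there, and between 9.93 and 18.7 CPM in the 8 libraries at 24 h. It fell by 0.79 ± 0.28 log2 units in APS-24h (adjusted p = 0.0419) and by 0.85 ± 0.28 in MPS-24h (adjusted p = 0.0242), calls that each rested on 3 libraries.

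**Figure D2:**
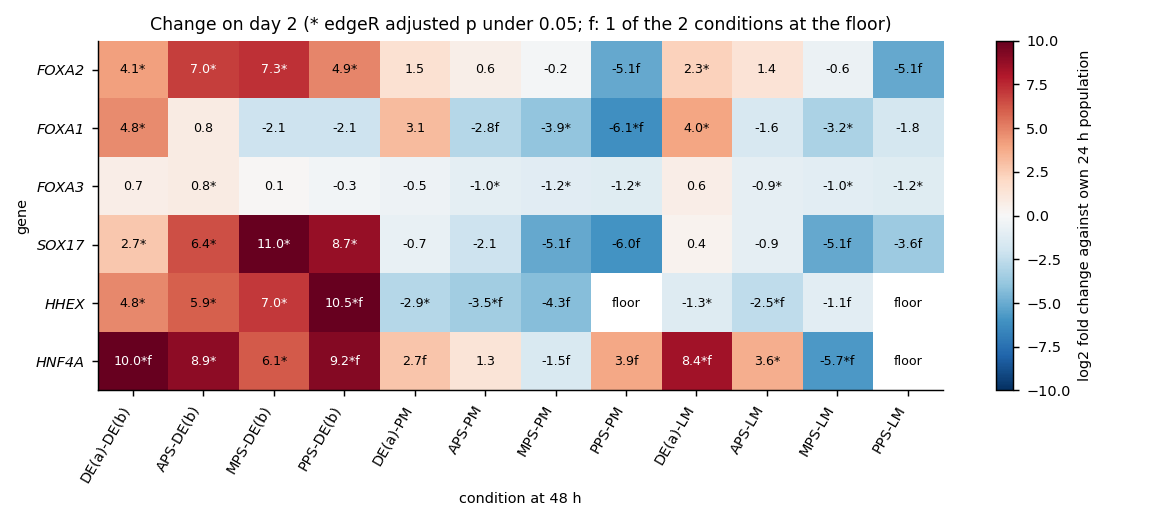
Fitted log2 fold change of each factor between a condition at 48 h and its own population at 24 h, with a star where edgeR's adjusted p was under 0.05, f where 1 condition was at the floor and the size depends on the prior count, and floor where both were. In DE(b) medium FOXA2, SOX17, HHEX and HNF4A rose from all 4 day 1 populations, and in LM medium HNF4A rose from DE(a) and APS cells.

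During day 2 in DE(b) medium, FOXA2, SOX17, HHEX and HNF4A rose from every day 1 population. HNF4A, the latest of them, went from 1 count at 24 h to 39.4 and 33.0 CPM in DE(a)-DE(b), and from 0.189 and 0 CPM to 49.2 and 49.9 CPM in APS-DE(b), a rise of 8.91 ± 0.94 log2 units (adjusted p = 5.68e-07). MPS-DE(b) reached 24.0 and 22.8 CPM (rise of 6.10 ± 0.80, adjusted p = 9.11e-06), and PPS-DE(b) reached 1.92 and 5.53 CPM from 0 counts, at least 22.7-fold higher. The replicates of MPS-DE(b) lay below those of APS-DE(b) and above those of PPS-DE(b). FOXA1 was called higher in DE(a)-DE(b) alone, where it was at 5.18 and 7.15 CPM (4.76 ± 1.24, adjusted p = 0.00619, lost without DE(a)-24h replicate 2, adjusted p = 0.0627), and was between 0.362 and 1.28 CPM in the other DE(b) libraries. FOXA3 rose in APS-DE(b) by 0.80 ± 0.28 (adjusted p = 0.034), a call lost when any of its 4 libraries was left out. SOX17 rose by 2.66 ± 0.92 in DE(a)-DE(b) (adjusted p = 0.0365), a call lost with DESeq2 and without either DE(a)-DE(b) library or DE(a)-24h replicate 2 (0.0539 to 0.229), and the rise of FOXA2 in PPS-DE(b) (4.89 ± 1.24, adjusted p = 0.00738) was lost without PPS-24h replicate 1 (0.0687) or PPS-DE(b) replicate 2 (0.129). In all, 5, 5, 4 and 4 of the 6 factors were called higher in DE(a)-, APS-, MPS- and PPS-DE(b), where 14.5%, 14.8%, 13.6% and 10.4% of all genes were (28%, 30.6%, 27.9% and 20.5% in either direction), and 0 were called lower.

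The next question was whether the day 1 treatment left a trace in the DE(b) cells. HHEX, FOXA2, FOXA3 and HNF4A were lower in PPS-DE(b) than in DE(a)-DE(b), and HHEX was also lower in MPS-DE(b), whereas no difference in SOX17 from DE(a)-DE(b) was called over all 34 libraries. HHEX was at 62.5 and 84.1 CPM from DE(a), 43.2 and 55.7 from APS, 13.9 and 19.5 from MPS and 6.24 and 11.5 CPM from PPS cells. The 4 ranges did not overlap. Against DE(a)-DE(b), HHEX was lower by 2.13 ± 0.42 log2 units in MPS-DE(b) (adjusted p = 0.0039) and by 3.01 ± 0.44 in PPS-DE(b) (adjusted p = 7.8e-05), and at -0.56 ± 0.41 in APS-DE(b) it was not called (adjusted p = 0.789). HHEX was the only factor called in MPS-DE(b), where 5.59% of all genes were, and the call was lost without MPS-DE(b) replicate 1 (adjusted p = 0.0824).

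FOXA2 was at 86.0 and 125 CPM from DE(a), 52.9 and 79.1 from APS, 17.1 and 37.8 from MPS and 2.17 and 11.0 CPM from PPS cells, again with no overlap between the 4 conditions. Only PPS-DE(b) was called against DE(a)-DE(b), at -3.98 ± 0.91 (adjusted p = 0.00438, and 0.0792 without PPS-DE(b) replicate 1), while MPS-DE(b) was at -1.94 ± 0.83 (adjusted p = 0.226). HNF4A, whose values are given above, had no such gradation over its first 3 conditions, with log2 fold changes of 0.47 ± 0.59 from APS, -0.62 ± 0.59 from MPS and -3.25 ± 0.65 from PPS cells (adjusted p = 0.91, 0.69 and 0.00142). Over all 34 libraries it was the only factor called between PPS-DE(b) and MPS-DE(b) (-2.62 ± 0.64, adjusted p = 0.0165), treatments that differed in 30 ng/ml of activin on day 1, and this call was lost without either MPS-DE(b) library (0.0634 and 0.067) or PPS-DE(b) replicate 1 (0.248). That comparison called 5.93% of all genes. With only its 4 libraries edgeR also called SOX17 lower in PPS-DE(b) (0.0384), where the libraries did not overlap.

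FOXA3 was at 27.7 and 20.8 CPM from DE(a), 23.9 and 21.3 from APS, 10.5 and 16.7 from MPS and 12.4 and 9.87 CPM from PPS cells. The first pair of conditions overlapped the control, and the second pair lay below it. PPS-DE(b) was lower than DE(a)-DE(b) at -1.08 ± 0.28 (adjusted p = 0.00976), a call lost without DE(a)-DE(b) replicate 1 (0.0815) or PPS-DE(b) replicate 2 (0.109). FOXA1 was lower in all 3 other DE(b) conditions, with log2 fold changes of -2.42 ± 1.06, -3.28 ± 1.13 and -2.89 ± 1.1 and no overlap with DE(a)-DE(b), and none was called (adjusted p = 0.534, 0.0999 and 0.0749). DESeq2 called FOXA1 from both MPS and PPS cells (adjusted p = 0.032 and 0.0334), as did edgeR with only the libraries compared (0.0412 and 0.016). SOX17 kept the highest levels, at 330 and 440, 401 and 518, 391 and 553, and 113 and 224 CPM in DE(a)-, APS-, MPS- and PPS-DE(b). Its difference between PPS-DE(b) and DE(a)-DE(b) was -1.15 ± 0.87 (adjusted p = 0.41), with lower values in both PPS-DE(b) libraries. In PPS-DE(b), 4 of 6 factors were called lower than in DE(a)-DE(b) and 0 higher, where 8.73% of all genes were lower (17.4% in either direction), with a median of -2.95 over the 6 and 0.00 over all genes. In APS-DE(b) 0 were called by edgeR and 0 by DESeq2, where edgeR called 0.469% of all genes, and FOXA1 alone had an unadjusted p under 0.05.

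**Figure D3:**
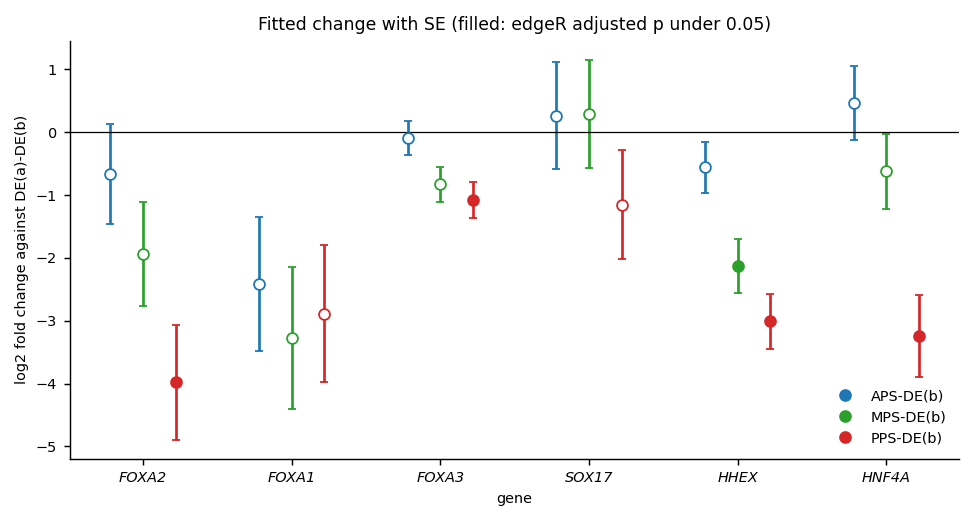
Fitted log2 fold change of each factor from APS, MPS and PPS cells against DE(a) cells in DE(b) medium, with bars of 1 SE and filled points where edgeR's adjusted p was under 0.05. HHEX is filled from MPS and PPS cells, FOXA2, FOXA3 and HNF4A in PPS-DE(b) alone, and every point of SOX17 and FOXA1 is open.

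The other DE genes, a list of 12, did not fall as a group in PPS-DE(b). Their median difference from DE(a)-DE(b) was -0.14, with 5 called lower and 1 higher, where 17.4% of all genes were called in either direction. CXCR4, the chemokine receptor used to sort DE, was at 9.25 and 17.5 CPM against 168 and 154 CPM (-3.55 ± 0.57, adjusted p = 0.000124). FRZB, a secreted Wnt antagonist (-3.08 ± 0.56), and PRDM1 (-1.84 ± 0.42) were lower too, and LGR5, a receptor that enhances Wnt signaling, was higher (2.04 ± 0.39). The GATA factors GATA4 (0.23 ± 0.30) and GATA6 (-0.01 ± 0.29), the T-box factor EOMES (-0.14 ± 0.55) and the Nodal antagonist CER1 (-0.15 ± 0.54) were not called. The list of paraxial mesoderm genes moved with the factors in the opposite direction. All 8 were called higher in PPS-DE(b), with a median of 5.41, and their summed level was 449 and 486 CPM against 7.54 and 11.1 CPM, where 3 of the 8 were at the floor. MSGN1 was at 13.9 and 10.7 CPM against 0, CDX1 at 16 and 14.3 against 0.148 and 0, and DLL3 at 341 and 382 against 4.66 and 7.79 CPM. Of 8 lateral mesoderm and amnion genes 5 were higher, and their sum was 126 and 89.9 against 4.29 and 4.13 CPM, 5 of them at the floor in DE(a)-DE(b). The part of these cell types in the lower endoderm factors was not tested.

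SOX17, FOXA2 and HNF4A are used outside DE as well, and markers of those cells were measured beside them. In DE(a)-DE(b) the visceral endoderm genes TTR (0 in both libraries) and AFP were at the floor, SOX7, a SOX17 relative of extraembryonic endoderm, was at 0.067 and 0 CPM, and 3 of 10 extraembryonic endoderm genes were at the floor in all. Their summed level of 749 and 908 CPM, beside 113 and 119 CPM in the control, was mostly GATA6, which DE shares. The part of extraembryonic endoderm in the levels of SOX17 and HNF4A was not tested. For FOXA2, the 10 node and notochord genes summed to 580 and 710 CPM in DE(a)-DE(b), beside 22.03 and 19.45 CPM in the control. NOTO and NOG were at the floor in DE(a)-DE(b). GSC and LHX1, of this list, also stand in the list of DE genes, so its sum is not particular to node and notochord. The part of node or notochord cells in the levels of FOXA2 was not tested. The 8 germ cell genes summed to 359 and 352 CPM, the highest sums of any condition, beside 220 and 225 CPM in the control. Of them 2 were called higher and 2 lower than in the control, where 34.7% of all genes were called in either direction. KIT alone was at 181 and 179 CPM beside 35.5 and 37.3 CPM in the control, and TFAP2C at 17.1 and 13.0 beside 9.97 and 8.93 CPM. PRDM1, of the same list, also stands in the list of DE genes, so the sum is not particular to germ cells. NANOS3, at 0 in both libraries, was the only germ cell gene of the list at the floor. The part of such cells in the levels of SOX17 was not tested. Of 11 blood and endothelial genes, TAL1, ERG and GATA1 were at the floor, GATA1 at 0. The list summed to 123 and 118 CPM, beside 195 and 239 CPM in the control. The part of blood or endothelial cells in the levels of SOX17 was not tested. The list of 12 DE genes summed to 6504 and 6448 CPM in DE(a)-DE(b) beside 14.5 and 14.9 CPM in the control. Of the 12, 11 were called higher, in the comparison that called 34.7% of all genes in either direction.

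**Figure D4:**
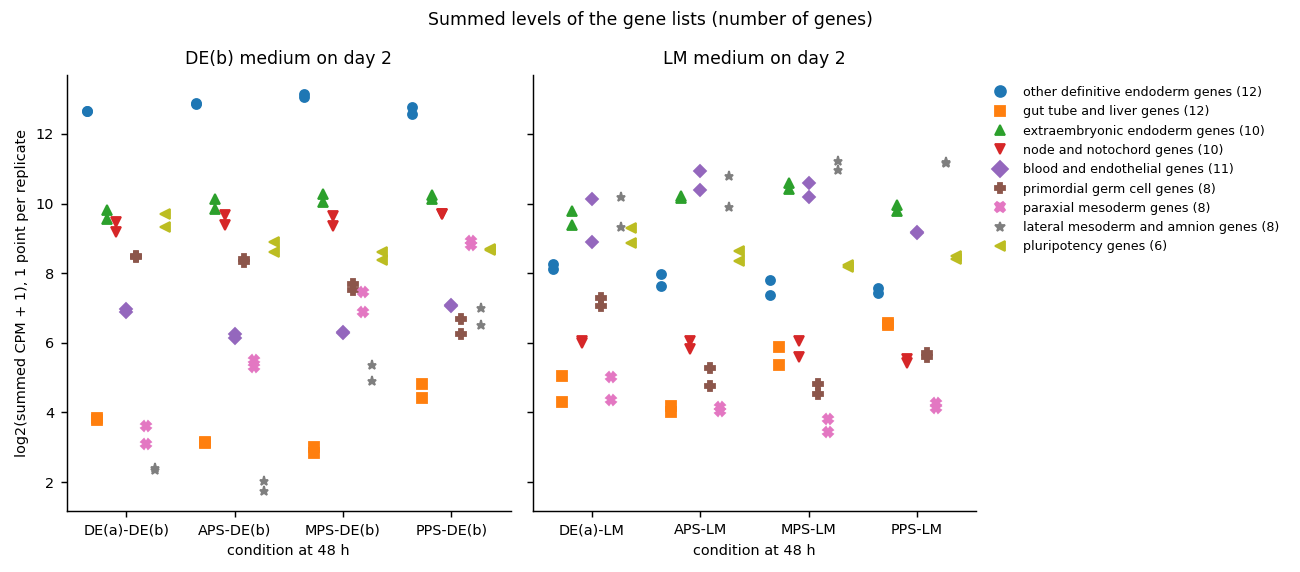
Summed CPM of 9 gene lists in the DE(b) and LM conditions, as log2(sum + 1) with 1 point per replicate and the number of genes in brackets. In DE(b) medium the sums of paraxial and of lateral mesoderm genes were highest in PPS-DE(b), and in LM medium the DE genes summed to 164 to 304 CPM.

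In LM medium, which blocks activin receptors and supplies BMP4, the factors were still measured in cells that had begun as DE(a). FOXA2, SOX17, HNF4A, FOXA3 and FOXA1 were higher in DE(a)-LM than in MPS-LM, the standard lateral protocol, and so was HHEX, at a low level. FOXA2 was at 34.6 and 28.8 CPM in DE(a)-LM, 2.28 and 0.483 in APS-LM, 0 and 0.190 in MPS-LM and 0 in PPS-LM. SOX17 was at 94.8 and 69.6 CPM in DE(a)-LM, 5.06 and 0.806 in APS-LM, 0 in MPS-LM and at most 0.0547 in PPS-LM. HNF4A was at 11.9 and 11.3 CPM in DE(a)-LM, 1.86 and 0.644 in APS-LM, 0 in MPS-LM and at most 0.0547 in PPS-LM. In each of these genes the DE(a)-LM libraries stood above all 6 others.

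FOXA3 was at 25.9 and 22.3 CPM in DE(a)-LM and between 5.08 and 7.33 CPM in the other LM libraries. FOXA1 was at 3.0 and 4.27 CPM in DE(a)-LM and at most 1.09 CPM in the others, and HHEX was at 1.53 and 0.716 CPM and at most 0.161 CPM. All 6 factors were called higher in DE(a)-LM than in MPS-LM, where 9.09% of all genes were (14.4% in either direction), with a median of 6.09 beside 0.00 over all genes. The differences were 8.05 ± 1.34 for FOXA2 (adjusted p = 0.000282), 1.91 ± 0.29 for FOXA3 (7.81e-05) and 3.57 ± 1.18 for FOXA1 (0.0453). SOX17 was at least 519-fold and HNF4A at least 73.4-fold higher (adjusted p = 0.000313 and 1.25e-05), and HHEX held 39 counts against 2, a ratio of 20.4 with a 95% interval of 5.27 to 174 for counting error only (adjusted p = 0.00145). The call of FOXA1 was lost when any 1 of 19 libraries was left out (0.0504 to 0.263), and that of HHEX with only the 4 libraries compared. In APS-LM edgeR called HNF4A alone against MPS-LM (adjusted p = 0.0103), where 3.79% of all genes were called, and this was lost without APS-LM replicate 1 (0.136) or either MPS-LM library (0.0505 and 0.143) and with only the 4 libraries compared (0.0765). DESeq2 also called SOX17 higher in APS-LM (0.000973).

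Set directly against DE(b) medium, DE(a)-LM differed in HHEX but in no other factor by edgeR over all 34 libraries. HHEX was 6.11 ± 0.53 log2 units higher in DE(a)-DE(b) (adjusted p = 9.33e-08), while FOXA2 was at 1.79 ± 0.82 (0.17), SOX17 at 2.28 ± 0.90 (0.103), HNF4A at 1.69 ± 0.61 (0.0679), FOXA1 at 0.81 ± 1.00 (0.688) and FOXA3 at 0.06 ± 0.28 (0.933). The libraries of FOXA2, SOX17, HNF4A and FOXA1 did not overlap between the media, with DE(a)-DE(b) higher, so these p-values do not show equal levels. With only the 4 libraries compared, FOXA2, SOX17 and HNF4A were called (adjusted p = 0.00284, 0.00107 and 0.0021), and HNF4A was called by DESeq2 (0.0392) and by edgeR with a replicate block (0.0433). This comparison called 15.6% of all genes. Against their own DE(a)-24h level, HNF4A rose in DE(a)-LM from 1 count to 425 counts over both libraries (adjusted p = 6.58e-06), FOXA1 rose by 3.95 ± 1.22 (0.0158) and FOXA2 by 2.33 ± 0.86 (0.0449), SOX17 was at 0.38 ± 0.87 (0.788) and HHEX fell by 1.29 ± 0.48 (0.0483). That comparison called 32.2% of all genes. The calls of FOXA2 and HHEX were lost when any 1 of 10 (0.0507 to 0.176) and of 17 libraries (0.0526 to 0.331) was left out, that of FOXA2 also with DESeq2 (0.114) and that of HHEX with only the libraries compared (0.126), and that of FOXA1 without either DE(a)-24h library or DE(a)-LM replicate 2 (0.0606 to 0.109).

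From APS cells, HNF4A rose between 24 h and LM medium by 3.60 ± 0.97 (0.00611) and HHEX fell by 2.54 ± 0.70 (0.008), where 37.2% of all genes were called, and both calls were lost when either of 2 libraries was left out (0.0713 and 0.0941, 0.078 and 0.0783). FOXA3 fell from 24 h in APS-LM by 0.89 ± 0.29 (0.0168), in MPS-LM by 1.02 ± 0.29 (0.00897) and in PPS-LM by 1.24 ± 0.29 (0.00254), where 31.3% and 25% of all genes were called in MPS-LM and PPS-LM. The fall was lost in APS-LM without APS-24h replicate 1 (0.124) or APS-LM replicate 1 (0.123), and in MPS-LM without MPS-LM replicate 1 (0.104) or MPS-24h replicate 2 (0.055). In MPS-LM, HNF4A also fell, from 14 counts at 24 h to 0 (0.0336), and FOXA1 fell by 3.20 ± 1.17 (0.0409). Each of these calls was lost without 1 of 3 libraries (0.129 to 0.294 for HNF4A, 0.0599 to 0.262 for FOXA1).

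The other DE genes split in DE(a)-LM. FRZB, at 28.2 and 22.8 CPM, was not called against DE(a)-DE(b), nor was GATA4, at 91.7 and 115 CPM. Of the 12, 9 were called higher in DE(a)-DE(b), where 15.6% of all genes were called in either direction. CER1 went from 4296 and 3886 CPM in DE(a)-DE(b) to 2.94 and 0.382 CPM in DE(a)-LM, MIXL1 from 559 and 565 to 2.84 and 2.67, GSC from 83.5 and 108 to 1.40 and 0.383, and CXCR4 from 168 and 154 to 5.81 and 3.54 CPM. HHEX thus lay with the second group. The lateral mesoderm and amnion genes summed to 645 and 1174 CPM in DE(a)-LM and to 1989 and 2395 CPM in MPS-LM, and 0 of 8 were at the floor in either. Liver gene APOB was at 10.7 and 18.6 CPM in DE(a)-LM against 1.72 and 1.69 CPM in DE(a)-DE(b) (log2 fold change of DE(b) minus LM -3.06 ± 0.50), whereas the liver gene APOA2 was at 1.63 and 1.43 against 9.27 and 8.84 CPM (2.60 ± 0.74). APOB also stands in the list of extraembryonic endoderm genes. That list summed to 665 and 881 CPM in DE(a)-LM and to 1539 and 1364 CPM in MPS-LM. In DE(a)-LM, 0 of its 10 genes were at the floor. Blood and endothelial genes summed to 473 and 1131 CPM in DE(a)-LM and to 1171 and 1550 CPM in MPS-LM. Germ cell genes summed to 154 and 132 CPM and to 27.1 and 21.9 CPM in the same order. The part of such cells in the factors of DE(a)-LM was not tested.

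PM medium, which also blocks activin receptors but supplies no BMP4, gave low levels, and the DE(a)-PM replicates disagreed. In DE(a)-PM, FOXA2 was at 33.0 CPM in replicate 1 and 3.37 in replicate 2, SOX17 at 72.7 and 3.75, and FOXA1 at 3.97 and 0.224 CPM. These are differences of 9.81, 19.4 and 17.7-fold between libraries of 1 condition. HHEX was at 0.329 and 0.393 CPM, HNF4A at 0.235 and 0.224 and FOXA3 at 12 and 9.89 CPM in the same libraries, within 1.21-fold of each other. EOMES followed the first 3 genes, at 24.4 and 2.64 CPM. The list of 12 DE genes, EOMES among them, went the other way in sum, at 489 and 793 CPM. In APS-PM replicate 1 was also above replicate 2 for FOXA2 (1.53 and 0.171 CPM) and SOX17 (2.44 and 0.213 CPM), and in MPS-PM and PPS-PM SOX17 was at 0. FOXA2 was at 0.252 and 0.0557 CPM in MPS-PM and at 0 in PPS-PM. HHEX was at most 0.0956 CPM, HNF4A at most 0.478 CPM and FOXA1 at most 0.315 CPM in PM medium from the other 3 populations. Whether the DE(a)-PM replicates differ in how many cells expressed the factors was not tested.

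Against the control, SOX17, FOXA2 and FOXA1 were called higher in DE(a)-PM (adjusted p = 0.000387, 0.0019 and 0.0139), where 31.4% of all genes were called. Without DE(a)-PM replicate 1 the calls of FOXA2 and FOXA1 were lost (0.124 and 0.62), and that of FOXA1 also without control replicate 2 (0.123). HHEX fell by 2.88 ± 0.55 log2 units from DE(a)-24h to DE(a)-PM (adjusted p = 0.000733), where 23.6% of all genes were called, with no overlap of the libraries, and the other 5 factors were not called in that comparison, although DESeq2 called FOXA1 higher in DE(a)-PM (0.0257). From APS cells HHEX held 33 counts at 24 h and 3 in PM medium, a ratio of 11.4 with a 95% counting interval of 3.56 to 57.8 (adjusted p = 0.00211, 25.1% of all genes called). FOXA1 fell from MPS-24h to MPS-PM by 3.91 ± 1.25 (0.0266, 22.6% called, lost without MPS-24h replicate 2 or either MPS-PM library, 0.0611 to 0.204) and from 126 counts in PPS-24h to 2 in PPS-PM (0.00347, 20.2% called, lost without PPS-PM replicate 2, 0.0559). FOXA3 fell from 24 h in APS-PM by 0.99 ± 0.28 (0.0131), in MPS-PM by 1.16 ± 0.29 (0.00537) and in PPS-PM by 1.22 ± 0.29 (0.00383), the first lost without either of 2 libraries (0.112 and 0.21) and with only the libraries compared (0.116). DE(a)-DE(b) exceeded DE(a)-PM by 7.31 ± 0.85 log2 units in HNF4A (adjusted p = 2.34e-06) and by 7.70 ± 0.58 in HHEX (1.34e-08). The replicates of these genes were alike, though DE(a)-PM held only 5 and 4 counts of HNF4A and 7 and 7 of HHEX. FOXA2 was higher in DE(a)-DE(b) by 2.59 ± 0.85 (0.0356) and SOX17 by 3.39 ± 0.95 (0.0144). FOXA3 was higher by 1.20 ± 0.28 (0.00343). This made 5 of 6 called higher, where 20.5% of all genes were called. With only the 4 libraries compared the calls of FOXA2 and SOX17 were lost, and DESeq2 did not call FOXA2. Without DE(a)-PM replicate 2 the calls of FOXA2, SOX17 and FOXA3 were lost (0.237, 0.0892 and 0.0532), and those of FOXA2 and SOX17 also without DE(a)-DE(b) replicate 2 (0.149 and 0.0598). From the other populations, 6 of 6 factors were higher in APS-DE(b) than in APS-PM (23.6% of all genes called) and 5 of 6 than in APS-LM (24.8%). From MPS cells 5 of 6 exceeded PM (21.3%) and LM medium (20.3%), and from PPS cells 5 of 6 did so too (18% and 19%), FOXA1 being the factor not called by edgeR, while DESeq2 called it higher in PPS-DE(b) than in PPS-PM (0.0235). The call of FOXA1 between APS-DE(b) and APS-PM (0.0472) was lost when any 1 of 18 libraries was left out (0.0507 to 0.223). That of FOXA3 was lost from MPS cells without 1 library against PM (0.0733) and 2 against LM (0.0794 and 0.147), in both cases MPS-DE(b) replicate 2, and against LM also MPS-LM replicate 1. From PPS cells FOXA3 was lost without PPS-DE(b) replicate 1 or either PM library (0.0789 to 0.184), or without PPS-DE(b) replicate 1 or either LM library (0.058 to 0.171), and against PM with only the libraries compared (0.0531). Within PM medium none of the 6 was called between DE(a)-PM and APS-PM by edgeR, where 0.0559% of all genes were, although 5 had an unadjusted p under 0.05 and DESeq2 called FOXA2 and SOX17 (0.0459 and 0.0289). MPS-PM and PPS-PM against APS-PM (0.447% and 5.25% of all genes called) and PPS-LM against MPS-LM (5.6%) held no call of a factor by edgeR, with 0, 1 and 0 at an unadjusted p under 0.05, and DESeq2 called SOX17 against APS-PM in both and FOXA2 in PPS-PM.

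FOXA3 was the factor with the smallest spread between replicates and the only one above 1 CPM in the undifferentiated control. It lay below the control in all PM conditions and in APS-, MPS- and PPS-LM, at 4.91 to 12 CPM in the PM libraries against 25.9 and 20.2 CPM. The fall was 1.1 ± 0.28 log2 units in DE(a)-PM (adjusted p = 0.00442), 1.78 ± 0.29 in PM medium from APS cells (4.29e-05), 2.01 ± 0.29 from MPS cells (1.14e-05) and 1.92 ± 0.29 from PPS cells (1.65e-05). In LM medium it was 1.69 ± 0.29 from APS cells (5.95e-05), 1.87 ± 0.29 from MPS cells (1.89e-05) and 1.95 ± 0.29 from PPS cells (1.28e-05), whereas DE(a)-LM was at 0.04 ± 0.28 (0.951). The call in DE(a)-PM was lost without control replicate 1 (0.0527) or DE(a)-PM replicate 2 (0.0573). In DE(b) medium FOXA3 was below the control in MPS-DE(b) (-0.73 ± 0.28, 0.0437, lost when any 1 of 11 libraries was left out) and PPS-DE(b) (-0.98 ± 0.28, 0.00907, lost without control replicate 1 or PPS-DE(b) replicate 2), and at 0.10 ± 0.28 in DE(a)-DE(b). In DE(b) medium 5, 5, 4 and 4 of 6 factors were called higher than in the control from DE(a), APS, MPS and PPS cells, comparisons that called 34.7%, 38.4%, 38.3% and 34.6% of all genes and share the control libraries. The call of FOXA1 in APS-DE(b) was lost without control replicate 2 or either APS-DE(b) library (0.0622 to 0.211), and that of FOXA2 in PPS-DE(b) without either control library or PPS-DE(b) replicate 2 (0.0756 to 0.347). The comparisons with the control called 35%, 35.8% and 40.9% of all genes in PM medium from APS, MPS and PPS cells, 34.9% in DE(a)-LM, 43.4% in APS-LM, 41.6% in MPS-LM and 41.1% in PPS-LM. HHEX was called lower in MPS-PM and PPS-PM (adjusted p = 0.0065 and 0.00303), where it had 0 counts, and FOXA1 higher in PPS-LM at 0.893 and 1.09 CPM (0.0439, lost when any 1 of 5 libraries was left out, 0.0502 to 0.231). In DE(a)-LM all factors but FOXA3 were called higher than in the control, and in APS-LM HNF4A (0.00119) and SOX17 (0.0367, lost without APS-LM replicate 1, 0.323, or either control library, 0.139 and 0.144). The calls of FOXA1 and HHEX in DE(a)-LM were lost without control replicate 2 (0.0555 and 0.104), and that of HHEX also without control replicate 1 (0.123) or DE(a)-LM replicate 1 (0.233) and with only the libraries compared (0.081). DESeq2 also called SOX17 higher in APS-PM (0.00872) and FOXA2 lower in PPS-PM (0.00197) and PPS-LM (0.00331) than in the control.

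The interaction asked whether the effect of the day 2 medium differed with the day 1 treatment. Over the 12 conditions at 48 h it was called for HNF4A (adjusted p = 0.0022) and SOX17 (0.00649), and not for FOXA2 (0.0624), FOXA3 (0.0638), HHEX (0.194) or FOXA1 (0.621), where 13.1% of all genes were called. For SOX17 the step from PM to DE(b) medium, on the log2 scale, was larger in MPS and PPS cells than in DE(a) cells (adjusted p = 0.0187 and 0.017). The counts behind it are 0 in MPS-PM and PPS-PM, so the fitted sizes depend on the prior count. From DE(a) cells SOX17 was at 72.7 and 3.75 CPM in PM medium and 330 and 440 CPM in DE(b) medium, and from MPS cells it was at 0 and at 391 and 553 CPM. From PPS cells it was at 0 and at 113 and 224 CPM, so PPS-DE(b) lay below DE(a)-DE(b) in CPM. These comparisons called 1.73% and 7.71% of all genes, and that with APS cells, which called 0.0279%, called none of the 6. Both calls were lost with only the libraries compared and when any 1 of 6 and of 3 libraries was left out (0.054 to 0.174 and 0.0603 to 0.144).

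The genes whose level followed each factor most closely over the 17 conditions were taken from 12258 tested genes that reached 10 CPM in a condition. For FOXA2 they were MOBP (Pearson's r = 0.94), CLVS2 (0.94) and VWF (0.93), and for HNF4A they were CLVS2 (0.98), COL4A3BP (0.96) and GTF2IP4 (0.96). HHEX was followed by CNGA4 (0.97), DSCAM (0.97) and TRMT44 (0.97), and SOX17 by LDLRAD4 (0.91), SLC35F3 (0.90) and SLC5A9 (0.90). For FOXA3, PLPP2 (0.96), C13orf42 (0.93) and FAM20C (0.92) were closest, all 3 highest in the control. FOXA1 had the least similar neighbours, CNKSR1 (0.82), LYSMD3 (0.79) and EIF2AK3 (0.76). These values describe likeness over condition means that share libraries, and nothing was tested.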

How the data were processed

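The 34 libraries are RNA sequencing of ESI017 cells with intact E-CAD. Those of the knockout line are not analysed here. As deposited by the authors, the tables hold estimated counts per gene, made with Salmon 1.10.2 and summed over transcripts in R 4.4.2 on GRCh38, without normalization. The annotation version is not given in the sources used here, and 0 columns were left unmatched. The labels call the replicates biological, and whether they were separate cultures is not stated further, so p-values measure the spread between these libraries. PM medium is given as in the labels, while a legend of the paper also lists CHIR, and the control is labelled 48 h.

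Counts, rounded to whole numbers, were scaled by TMM and filtered per condition with filterByExpr, which kept 17895 genes. The model of edgeR 4.0.16 (run under R 4.3.3) had 1 mean per condition. Its quasi-likelihood test was applied to 53 contrasts and 1 interaction, each with Benjamini-Hochberg adjustment over all genes kept. Residual degrees of freedom were 17 and the common dispersion 0.0611. Dispersion of SOX17, FOXA1 and FOXA2 lay above that of 90.9% of genes or more, so their tests have little power. Fold bounds allow 3 counts in each library. Alternatives were RLE, no filter, a replicate block, only the libraries compared, DESeq2 1.42.0 and each library left out, the last with the gene set and dispersion trend of the full fit. Lengths and overlaps are from GENCODE, promoters from RefSeq. Named genes are the 6 factors, the 3 genes most like each over condition means of log2(CPM + 1), and in each list up to 4 called genes with the largest change that reached 10 CPM. SOX7, TTR, AFP, NANOS3, TFAP2C, KIT, GATA1, LGR5, PRDM1 and the other list genes named outside this rule were chosen after their values were seen. The values of 1 DE list gene are not reported here. The factors and lists were chosen with earlier results of these data known. On simulated data with 200 genes changed in PPS-DE(b), of which 195 were among 17211 tested, edgeR called 101 of them, all in the right direction, and 4 others. The share called was 63.7% at a change of 2 log2 units and 38.7% at 1. The simulated counts had the dispersion of the trend and each gene's mean over all libraries. These shares therefore do not describe the power for SOX17, FOXA1 and FOXA2, whose own dispersion was high. Intervals and floors cover counting error only.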

Additional observations from a re-analysis of the deposited data

Results flagged for a closer look

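In the test of whether the day 2 medium acted differently after different day 1 treatments, HNF4A (adjusted p = 0.0022) and SOX17 (adjusted p = 0.00649) differed over the 12 conditions at 48 h. For SOX17 the difference between DE(b) and PM medium was larger in MPS cells than in DE(a) cells by 12.77 log2 units and larger in PPS cells by 11.32 log2 units (edgeR adjusted p = 0.0187 and 0.017). SOX17 had 0 counts in MPS-PM and PPS-PM, so both sizes depend on the prior count. HNF4A was at 11.9 and 11.3 CPM in DE(a)-LM but at 0.235 and 0.224 CPM in DE(a)-PM, and at 0 counts in MPS-LM, beside 39.4 and 33.0 CPM in DE(a)-DE(b).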

How the results depend on the processing

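Of 142 calls of a factor in a contrast, 0 changed direction under any alternative, 142 of 142 held with RLE in place of TMM, and 90 held with each of the 34 libraries left out in turn. Leaving out 1 library moved the number of calls from 9 to 5 to 10 for day 1 against control, from 5 to 3 to 6 between day 1 populations, from 20 to 17 to 21 for DE(b) against control, from 20 to 15 to 22 for PM and LM against control, from 36 to 31 to 36 for day 2 against day 1, from 6 to 4 to 7 for day 1 history within DE(b), from 7 to 5 to 10 within PM and LM, from 37 to 34 to 40 for DE(b) against PM or LM, and from 4 to 2 to 8 for the interaction. The 5 calls against the control came without either control library, the 3 between day 1 populations without either DE(a)-24h library, and the 2 and 8 of the interaction without DE(a)-DE(b) replicate 1 and DE(a)-PM replicate 2. Without the filter on low counts, calls rose to 16 for day 1 against control, 10 between day 1 populations, 12 for history within DE(b), 16 within PM and LM and 11 for the interaction. That fit of 27023 genes had infinite prior degrees of freedom, so each gene took the dispersion of the trend. DESeq2 made 8 calls between day 1 populations and 13 for history within PM and LM, and was not run for the interaction test over 12 conditions. With only the libraries compared, the interaction had 2 calls. Same-numbered libraries share a number by label, and replicates 1 and 2 stand in separate tables, while no label ties a number to a batch. Over 136 pairs of conditions, deviations of same-numbered libraries correlated with a median r of 0.162 (range -0.196 to 0.569), over 0.1 in 96 and below 0 in 14, so pairing in every condition was not met and the main model has no block. With a replicate block the calls were 10, 5, 20, 20, 37, 6, 7, 38 and 5 in the same order, with FOXA3 called between PPS-24h and control (0.0499) and between DE(a)-DE(b) and DE(a)-24h (0.0488), HNF4A between DE(a)-DE(b) and DE(a)-LM (0.0433) and FOXA3 in the interaction (0.0398), and it changed no other call. Of the 3 genes most like each factor, replicate 1 alone or replicate 2 alone kept 0 to 2. With 2 libraries per condition, and 3 counts as the least signal, differences among conditions at 0.2 CPM or lower cannot be read.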
